A study of Mus musculus with 21 samples.

Results

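Kinesin genes were followed in spiral ganglion neurons, the cells that carry signals from the cochlea to the brain. Members were all rows of the count table whose symbol is Kif and a digit, together with the light chain genes Klc1, Klc2 and Klc4, if they had at least 1 count in at least 3 libraries. Symbols ending in ap3 and a few further Kif rows were left out by the rule. It found 37 members among 16663 genes that met the same minimum. They comprise 33 motor heavy chains, 3 light chains and Kif1bp, whose symbol fits the rule although its product binds kinesins and is no motor. Kif12, counted in 1 library, and Kif2b, with no count, were below the minimum. Neurons were taken at postnatal day 7 from mice given an adeno-associated virus, and about 50 neurons collected by micropipette made 1 Smart-seq2 library, a full-length method on polyadenylated RNA. The virus of the controls, whose genotype the labels give as WT, carried EGFP. The other viruses carried dominant-negative ion channels, HCN2 with a mutated site (DN-HCN2) or SK3 in shortened form (truncated SK3). Each condition was sampled at the apex and the base of the cochlea, with 4 libraries each of control apex, control base and DN-HCN2 apex and 3 each of DN-HCN2 base, truncated SK3 apex and truncated SK3 base. All groups had received a virus. The labels name no promoter, and they call the libraries biological replicates without saying which animals they came from, so p-values measure the spread between these libraries.

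Kinesins are motor proteins that walk along microtubules and burn ATP as they go, mostly away from the cell body. In neurons they carry vesicle precursors, mitochondria and channel proteins down the axon, and the light chains of kinesin-1 help to choose its cargo. Other kinesins shorten microtubules, work in cilia or serve only in dividing cells.

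Libraries held between 10411634 and 15138780 counts. Levels are CPM, the field's unit of counts scaled to library size, here after TMM scaling, and levels of different genes are compared only as CPM per kb of the longest annotated transcript. Of 37 members, 32 had enough counts to be tested among 14968 genes, 25 were counted in all 21 libraries, and 10 averaged under 1 CPM. Summed markers of spiral ganglion neurons lay between 7210 and 14984 CPM, and Prph, a marker of type II neurons, was at 0 in 6 libraries. Markers of Schwann and satellite glia, at 8856 to 40195 CPM, were of the same order. Library replicates 2 and 3 of DN-HCN2 base held 1173 and 818 CPM of macrophage markers, against at most 353 CPM elsewhere. Replicate 1 of DN-HCN2 apex held 10191 CPM of supporting cell markers. In libraries pooled from many cells, fewer cells of a type and less RNA per cell cannot be told apart. No member shared as much as 2% of its 50-base stretches with another gene, so reads of the paralogs could mostly be told apart.

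RefSeq promoter windows were at hand for 30 of 37 members, on GRCm38.p6. The windows of Klc1 and Kif5c are shown because these genes are the light chain and the kinesin-1 heavy chain with the highest level, those of Kif26b and Kif1bp because both genes changed under DN-HCN2, and those of Kif15 and Kif22 because both belong to the kinesins of dividing cells. All are printed 5′ to 3′ on the gene's strand and end before the annotated start of the gene. Capitals mark TGACGTCA, the cyclic AMP response element, or TTTGAA, the cell cycle homology region element, read on either strand (TTCAAA is its reverse).
Klc1, chr12:111758618-111758848, plus strand: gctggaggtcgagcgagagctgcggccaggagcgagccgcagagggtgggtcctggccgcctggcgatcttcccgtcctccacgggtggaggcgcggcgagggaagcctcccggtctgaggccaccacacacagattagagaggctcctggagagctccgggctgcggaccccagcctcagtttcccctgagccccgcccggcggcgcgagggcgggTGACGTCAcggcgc
Kif5c, chr2:49619036-49619285, plus strand: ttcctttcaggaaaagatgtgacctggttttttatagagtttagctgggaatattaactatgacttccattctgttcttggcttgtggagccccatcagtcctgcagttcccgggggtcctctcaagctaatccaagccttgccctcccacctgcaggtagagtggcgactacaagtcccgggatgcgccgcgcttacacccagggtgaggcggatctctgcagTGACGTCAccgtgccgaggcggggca
Kif26b, chr1:178528875-178529124, plus strand: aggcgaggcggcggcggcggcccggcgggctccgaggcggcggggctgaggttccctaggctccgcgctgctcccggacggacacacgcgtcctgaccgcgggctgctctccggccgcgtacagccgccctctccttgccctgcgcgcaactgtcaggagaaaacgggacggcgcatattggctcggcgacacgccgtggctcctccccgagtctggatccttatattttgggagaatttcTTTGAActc
Kif1bp, chr10:62578458-62578707, minus strand: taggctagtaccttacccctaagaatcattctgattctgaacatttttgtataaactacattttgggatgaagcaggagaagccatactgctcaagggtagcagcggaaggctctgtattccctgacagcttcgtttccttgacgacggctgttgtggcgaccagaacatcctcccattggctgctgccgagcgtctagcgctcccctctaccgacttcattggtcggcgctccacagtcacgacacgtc
Kif15, chr9:122950831-122951045, plus strand: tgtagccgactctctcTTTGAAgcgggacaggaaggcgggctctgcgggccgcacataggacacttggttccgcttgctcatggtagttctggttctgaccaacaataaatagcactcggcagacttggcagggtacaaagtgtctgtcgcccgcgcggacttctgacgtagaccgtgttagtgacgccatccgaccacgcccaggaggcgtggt
Kif22, chr7:127042472-127042670, minus strand: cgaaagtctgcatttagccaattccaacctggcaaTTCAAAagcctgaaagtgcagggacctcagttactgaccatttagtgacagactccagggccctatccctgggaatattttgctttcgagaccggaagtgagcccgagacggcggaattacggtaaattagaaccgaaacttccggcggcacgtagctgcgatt

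In the 250 bases before the RefSeq start, TGACGTCA stood in 3 of 22 members outside the kinesins of dividing cells (Klc1, Kif5c and Kif17). It stood in 0 of 8 kinesins of dividing cells and in 1.77% of all RefSeq genes with a window. TTTGAA stood in 4 of 8 kinesins of dividing cells, in 3 of 22 other members and in 18.3% of all genes. Kif15 and Kif22, whose windows are printed, are both among those 4. Kif4, Kif18a, Kif18b and Kif20b, whose windows are not printed, had no TTTGAA in these 250 bases. In the full window of 300 bases, which adds 50 bases after the start, TTTGAA stood in 7 of 8 kinesins of dividing cells, again in 3 of 22 others and in 20.2% of all genes. TGACGTCA stood there in 1 of 8 kinesins of dividing cells, in 3 of 22 others and in 2.03% of all genes. These motifs are 2 of 10 that were searched, picked after their counts were seen, and a match is a description of the letters only.

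Klc1, the main light chain of neurons, was by far the highest member at 402 CPM per kb over the 21 libraries, 42.8% of the 940.0 CPM per kb that the members summed to. Its level ran from 771 CPM in replicate 3 of truncated SK3 apex to 1540.4 CPM in replicate 3 of DN-HCN2 base. The other light chains were lower, with Klc4 at 24.7 and Klc2 at 12.6 CPM per kb. Among the kinesin-1 heavy chains, which move vesicles and mitochondria in the axon, Kif5c reached 65.3, Kif5b 47.7 and Kif5a 45.2 CPM per kb. The heavy chains were thus closer to each other in level than the light chains were.

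Kif3a came second to Klc1 at 98.8 CPM per kb. It is the shared subunit of heterotrimeric kinesin-2, a motor of cilia and of axonal cargo, and its partner Kif3c (26.4) was above its partner Kif3b (4.98 CPM per kb). In the controls the mean of Kif3a was 355 ± 39.4 CPM (SD, n = 4) at the apex and 318 ± 29.5 CPM (n = 4) at the base. The vesicle motors of the kinesin-3 family, Kif1a (54.2 CPM per kb) and Kif1b (47.3), which carry synaptic vesicle precursors, were far above the family's endosomal members Kif13a (4.47), Kif16b (2.59) and Kif13b (1.58). Among controls Kif1a had a mean of 456 ± 52.4 CPM at the apex and 446 ± 47.8 CPM at the base, and Kif1b one of 495 ± 87.1 and 560.0 ± 57.3 CPM (SD, n = 4 each). Kif5b, Kif1b, Kif1bp and Kif5a lay between 45.2 and 47.7 CPM per kb, and their group means overlapped, so their order is not distinct.

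Kif21a, a kinesin-4 motor that restrains microtubule growth, stood at 29.5 CPM per kb, above its relative Kif21b at 3.64. Kif2a, which takes microtubules apart, had 12.6 CPM per kb. Cilium and Hedgehog members were low, among them Kif19a at 1.87, Kif9 at 1.45, Kif7 at 0.897 and Kif17 at 0.868 CPM per kb. Kif26b (1.86) and Kif1c (0.903 CPM per kb) were of the same order. The remaining 13 members, from Kif22 at 0.754 down to Kif26a at 0.0122 CPM per kb, include all the kinesins of dividing cells described further on, and Kif14, Kif18b, Kif26a, Kif2c and Kif6 had too few counts for a test. Opposite-strand genes cover 19.2% of the exon bases of Kif2a, 20.3% of those of Kif7 and 40.7% of those of Kif3c. Among the kinesins of dividing cells they cover 29.3% of the exon bases of Kif20a and 15.1% of those of Kif4. The levels of these members can therefore include reads of those genes, while Kif3b has no such overlap. Levels per length rest on the longest annotated transcript, and which isoforms these neurons use was not analysed here.

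**Figure D1:**
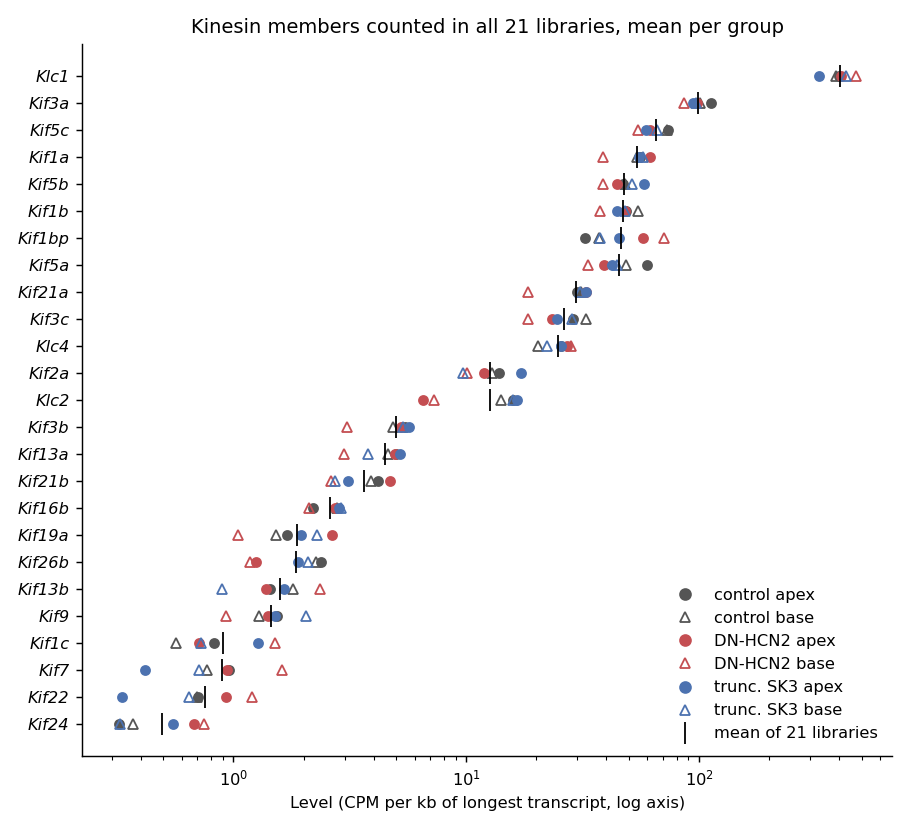
Level of the 25 members counted in all 21 libraries, in CPM per kb on a log axis. Each symbol is the mean of a group, filled circles for apex and open triangles for base, and the upright bar is the mean of 21 libraries. Klc1 at 402 CPM per kb stands apart from Kif3a at 98.8, the next, and the 2 DN-HCN2 groups lie below the other 4 for Klc2 and Kif26b and above them for Kif1bp.

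The first comparison was DN-HCN2 against control over both regions. Of 32 tested members, 3 passed an adjusted p of 0.05 in edgeR's quasi-likelihood test, where 6.05% of all 14968 genes passed. Of the members 1 rose and 2 fell, against 2.45% and 3.61% of all genes. The light chain gene Klc2 fell, the atypical kinesin gene Kif26b fell, and Kif1bp rose.

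Klc2 (ENSMUSG00000024862, chromosome 19, 5107746 to 5118560, minus strand) encodes a light chain that links kinesin-1 to its cargo. Its level was 43.5, 55.9, 58.6 and 42.5 CPM in the libraries of control apex and 38.8, 44.0, 43.0 and 53.3 CPM in control base. With DN-HCN2 it was 13.6, 21.3, 27.0 and 20.5 CPM in the apex and 19.8, 23.3 and 26.0 CPM in the base. All 7 DN-HCN2 libraries thus lay below all 8 control libraries. Summed markers of Schwann and satellite glia were also lower in DN-HCN2 base, at 8856 to 12977 CPM against 13383 to 25700 CPM in control base, while DN-HCN2 apex, at 9683 to 16597 CPM, overlapped with control apex, at 11047 to 17651 CPM. The part of glia in this and the following DN-HCN2 results was not tested. For Klc2 this gave a log2 fold change of -1.12 (SE 0.21, edgeR adjusted p = 0.00319), a ratio of 0.459. It stayed past the threshold in each of 15 fits without 1 library and in each of 11 other settings. Of the summed light chain level per length, Klc2 made up 3.61% ± 0.647 (SD, n = 4) at the control apex and 3.37% ± 0.613 (n = 4) at the control base. The DN-HCN2 shares were 1.48% ± 0.386 (n = 4) and 1.47% ± 0.184 (n = 3). The highest DN-HCN2 library had 1.95% and the lowest control library 2.86%. Klc1 and Klc4 did not pass the test, Klc1 at a log2 fold change of 0.15 (SE 0.10, edgeR adjusted p = 0.402), and Klc4 at 0.28 (SE 0.14, adjusted p = 0.246).

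Kif26b (chromosome 1, 178529125 to 178939200, plus strand) belongs to an unusual kinesin family whose products lack motor activity and is known from kidney development. It had 38.3, 29.1, 30.5 and 32.9 CPM in control apex and 30.7, 44.1, 22.1 and 28.1 CPM in control base. DN-HCN2 libraries had 13.5, 18.0, 14.8 and 22.3 CPM in the apex and 8.10, 23.7 and 16.8 CPM in the base. Only the lowest control library, replicate 3 of the base, reached into the DN-HCN2 range. For Kif26b this gave a log2 fold change of -0.94 (SE 0.23, edgeR adjusted p = 0.0208). With a trend on GC content and length taken out it was -0.54 and did not pass (edgeR adjusted p = 0.272), and without replicate 1 of DN-HCN2 apex and of DN-HCN2 base it was -0.73 (edgeR adjusted p = 0.0659). Those 2 had the most fibroblast markers among DN-HCN2 libraries (2388 and 3470 CPM) and the most supporting cell markers (10191 and 2321 CPM). Replicate 3 of control base, the control library lowest in Kif26b, had 3516 CPM of fibroblast markers. In truncated SK3 apex, where Kif26b ran from 22.8 to 31.3 CPM, 2 libraries had 3159 and 3793 CPM of supporting cell markers. The part of these cells in the Kif26b values was not tested. Without the 2 DN-HCN2 base libraries rich in macrophage markers, Kif26b was at -1.43 in edgeR. That fit keeps replicate 1 as the only library of DN-HCN2 base, and its 8.10 CPM was the lowest Kif26b level of all libraries.

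Kif1bp (chromosome 10, 62538626 to 62578457, minus strand, Kifbp in RefSeq) encodes a protein that binds several kinesins and keeps them off microtubules. Control libraries had 77.1, 105, 63.0 and 94.4 CPM in the apex and 113, 112, 63.4 and 99.6 CPM in the base. DN-HCN2 libraries had 162, 154, 134 and 155 CPM in the apex and 125, 172 and 258 CPM in the base. Every DN-HCN2 library was above every control library. For Kif1bp this gave a log2 fold change of 0.88 (SE 0.21, edgeR adjusted p = 0.0168). Leaving out the library at 258 CPM, the third of DN-HCN2 base, gave 0.73 and an edgeR adjusted p of 0.0503. The value was 0.84 with the GC and length trend taken out (edgeR adjusted p = 0.0535). Without the 2 libraries rich in macrophage markers it was 0.61 (edgeR adjusted p = 0.187), where DN-HCN2 base keeps 1 library that is assumed to vary like the other groups. Their part in the result was not tested beyond these values. Exons of an opposite-strand gene cover 10.1% of the exon bases of Kif1bp, 10.6% of those of Klc2 and 6.19% of those of Kif26b. The levels of these genes can therefore include reads of their opposite-strand genes.

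**Figure D2:**
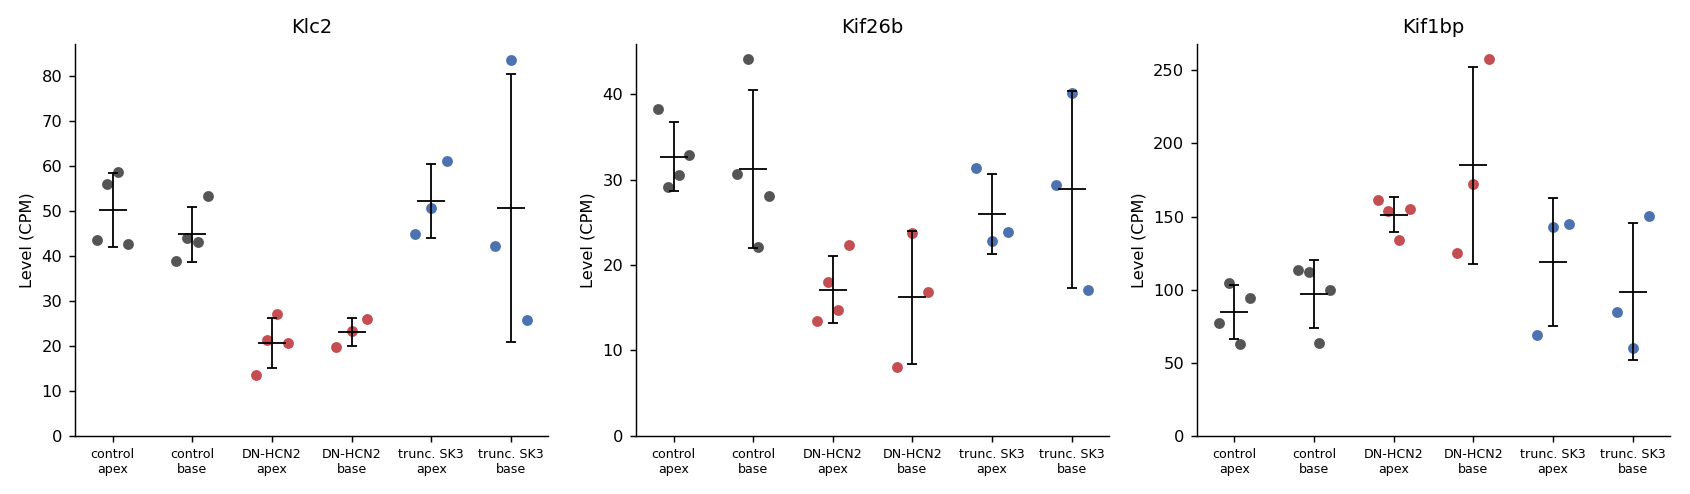
Level in CPM of Klc2, Kif26b and Kif1bp in each library by group, with the mean and SD in black. All 7 DN-HCN2 libraries lie below the 8 control libraries for Klc2 and above them for Kif1bp, and replicate 3 of truncated SK3 base at 25.8 CPM of Klc2 lies within the DN-HCN2 range.

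Among the heavy chains of axonal transport, Kif5a, Kif5c and Kif3c had the next smallest p-values and did not pass in edgeR. Kif5a, the heavy chain most restricted to neurons, had 429.5, 354, 408 and 312 CPM in control apex and 296, 295, 307 and 321 CPM in control base. DN-HCN2 libraries had 162, 213, 374 and 239 CPM in the apex and 175, 224 and 229.8 CPM in the base. Apart from replicate 3 of DN-HCN2 apex, at 374 CPM, all DN-HCN2 libraries were below all control libraries. For Kif5a this gave a log2 fold change of -0.57 (SE 0.18, edgeR adjusted p = 0.0580).

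Kif3c, a partner of Kif3a, had 187, 180.5, 219 and 194 CPM in control apex and 197, 227, 236 and 228 CPM in control base. With DN-HCN2 it had 83.5, 110.2, 282 and 161 CPM in the apex and 123, 122 and 131 CPM in the base. Here too only replicate 3 of DN-HCN2 apex, at 282 CPM, was not below the controls, and its value was the highest of all. Opposite-strand genes cover 40.7% of the exon bases of Kif3c. For Kif3c this gave a log2 fold change of -0.56 (SE 0.18, edgeR adjusted p = 0.0631).

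Kif5c had 542, 484, 491 and 504 CPM in control apex and 538, 553, 439 and 467 CPM in control base. DN-HCN2 libraries had 256, 385, 609 and 431 CPM in the apex and 395, 338 and 389 CPM in the base. The same library of the apex was the highest, and the other 6 were below all controls. For Kif5c this gave a log2 fold change of -0.34 (SE 0.13, edgeR adjusted p = 0.127).

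The calls of Kif5a, Kif3c and Kif5c depended on the setting. With the GC and length trend taken out, Kif5a was at -0.30 (edgeR adjusted p = 0.389), Kif3c at -0.27 (adjusted p = 0.430) and Kif5c at -0.02 (adjusted p = 0.958). With only the groups compared in the fit, Kif5a passed at -0.57 (edgeR adjusted p = 0.0325). Replicate 3 of DN-HCN2 apex was followed up after its values were seen. Its members summed to 5510.3 CPM, the highest of 21 libraries, against 3009 CPM in replicate 1 of its group, the lowest. It was the highest library for 10 of 19 members with a mean of 10 CPM or more. Its glial markers, at 9683 CPM, were below those of the other libraries of its group, at 14664 to 16597 CPM, and their part was not tested. Without it, 6 members passed in place of 3. Kif3c then had a log2 fold change of -0.77 (SE 0.12, edgeR adjusted p = 0.000779), Kif5a -0.71 (SE 0.16, edgeR adjusted p = 0.00921) and Kif5c -0.45 (SE 0.11, edgeR adjusted p = 0.0146). With all libraries, DESeq2 called 5 members and limma-voom with sample weights 6, with Kif3c and Kif5a in both and Kif5c in the latter. The share of all genes that passed is not given here for these tools or for the fit without replicate 3 of DN-HCN2 apex. These counts of members are therefore not set against all genes.

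**Figure D3:**
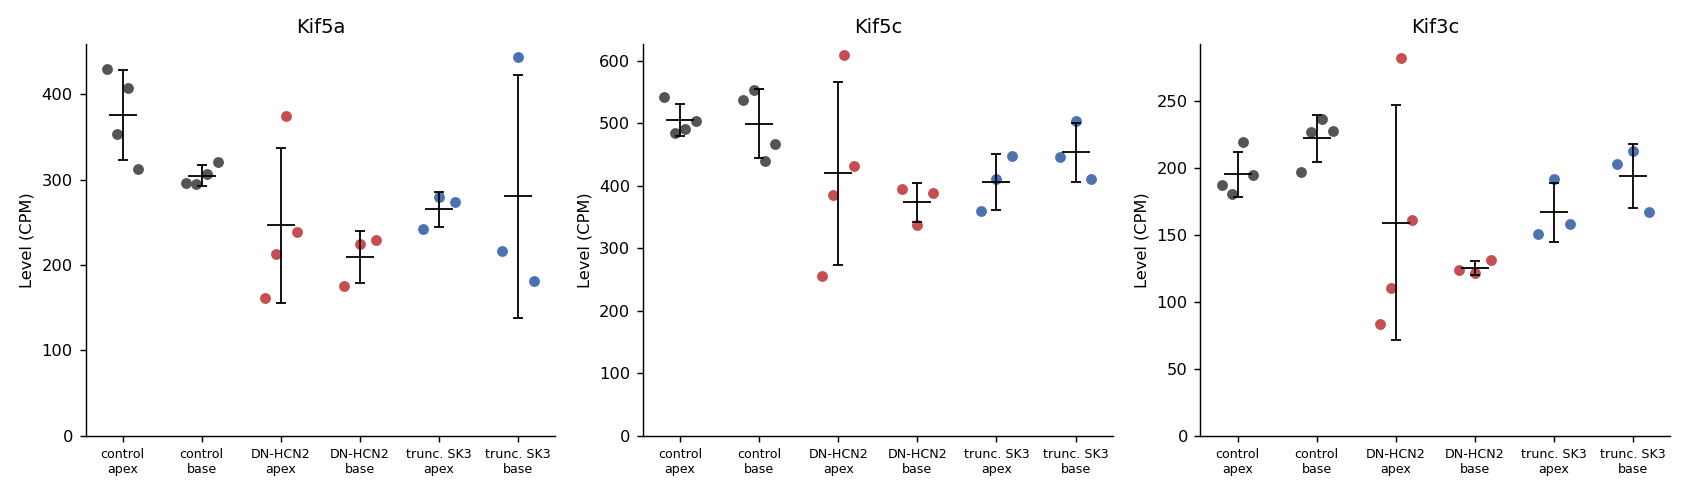
Level in CPM of Kif5a, Kif5c and Kif3c in each library by group, with the mean and SD in black. In DN-HCN2 apex replicate 3 lies far above the other 3 libraries, at 374, 609 and 282 CPM, and the remaining DN-HCN2 libraries lie below all controls.

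The make-up of the kinesin-1 heavy chains was described as shares too. Kif5a made up 33.0% ± 2.78 (SD, n = 4) of the summed heavy chain level per length at the control apex, 28.7% ± 2.40 (n = 4) at the control base, and 26.8% ± 1.57 (n = 4) and 26.3% ± 2.98 (n = 3) with DN-HCN2. Replicate 3 of DN-HCN2 apex had the highest share of its group, 29.02%, against 25.6% to 26.6% in the other 3 libraries. With truncated SK3 the share was 26.5% ± 1.27 (n = 3) in the apex and 26.5% ± 8.74 (n = 3) in the base. Kif5c held between 37.2% and 43.2% of the heavy chain level in all 6 group means. These shares were not tested.

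The other highly expressed motors did not pass with DN-HCN2. Kif1a had 282, 523, 759 and 462 CPM in DN-HCN2 apex and 324, 226 and 396 CPM in the base, against 376 to 508 CPM in the 8 controls. Its log2 value was -0.17 (SE 0.16, edgeR adjusted p = 0.585), with libraries on both sides of the control range. Kif1b spread as widely, from 249 to 773 CPM in DN-HCN2 apex, at -0.28 (SE 0.18, edgeR adjusted p = 0.389). Kif3a was at -0.21 (SE 0.12, edgeR adjusted p = 0.339), Kif5b at -0.20 (SE 0.11, adjusted p = 0.285) and Kif21a at -0.31 (SE 0.17, adjusted p = 0.308). With the GC and length trend taken out, Kif1a (0.15), Kif1b (0.10) and Kif5b (0.16) turned positive and Kif21a was at -0.02. In all of these but Kif5b, whose highest library was of truncated SK3 apex, the highest of the 21 libraries was replicate 3 of DN-HCN2 apex.

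Over all 32 tested members, 13 had positive and 19 negative log2 fold changes with DN-HCN2. The median was -0.20 against 0.03 over all genes, of which 47.5% were negative. With the trend on GC content and length taken out, the split was 18 to 14. The median was then 0.05 against 0.06 over all genes, of which 43.6% were negative. Among the 19 members with a mean of at least 10 CPM, a level chosen after values were seen, 4 were positive and 15 negative, and 10 and 9 with that trend taken out. Taking out that trend left 1 called member, Klc2, which was lower, where 351 of all genes were called higher and 235 lower. The 13 tested members below 10 CPM had 9 positive and 4 negative values. Shares of all genes at these levels are not given here, so the splits by level are not set against other genes of like level. At an unadjusted p under 0.05, 5 of 32 members were lower and 1 was higher, against 11.3% and 10.7% of all genes.

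**Figure D4:**
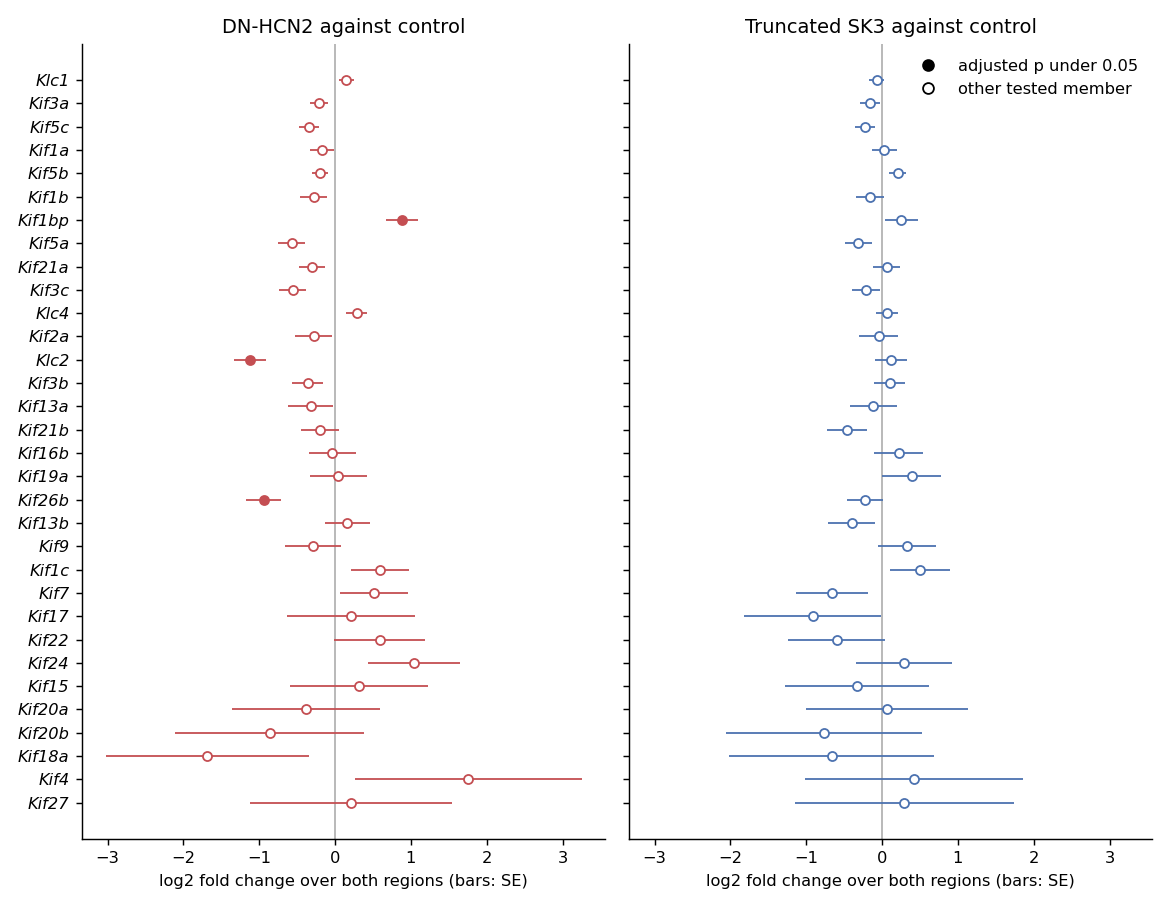
The log2 fold change of the 32 tested members over both regions, with DN-HCN2 (left) and truncated SK3 (right) against the same controls, ordered by level per length with Klc1 on top. Bars are standard errors and filled points have an edgeR adjusted p under 0.05. Klc2, Kif26b and Kif1bp are filled on the left and none on the right, and the bars widen to over 1 for the rarest members.

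By region, no member passed in edgeR. In the apex 0.200% of all genes passed, 4 members had an unadjusted p under 0.05 against 11.9% of all genes, and DESeq2 and limma-voom with sample weights each called 1, Klc2. Its edgeR log2 fold change there was -1.28 (SE 0.28, adjusted p = 0.0616), and -1.44 (edgeR adjusted p = 0.0320) without replicate 3. In the base 2.14% of all genes passed, 9 members had an unadjusted p under 0.05 against 18.5% of all genes, and DESeq2 called 3 and limma-voom with sample weights 1. The member of smallest p in the base was Klc2 again, at -0.96 (SE 0.31, edgeR adjusted p = 0.0913). Kif21a had 138, 116 and 103 CPM in DN-HCN2 base, below the 172 to 239.7 CPM of control base, but 129.9 to 329 CPM in DN-HCN2 apex, around the 185 to 212 CPM of control apex. The test of that difference between regions did not pass (log2 difference -0.87, SE 0.34, edgeR adjusted p = 0.634). No member passed that test in edgeR, DESeq2 or limma-voom, 2 members had an unadjusted p under 0.05 against 6.85% of all genes, and 0.00668% of all genes passed.

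Truncated SK3 was compared with the same control libraries. Over both regions no member passed in edgeR, DESeq2 or limma-voom, and 0.735% of all genes did in edgeR. None of the 32 members had an unadjusted p under 0.05, against 10.3% of all genes. The smallest p belonged to Kif5b, the heavy chain found in most tissues, at a log2 fold change of 0.21 (SE 0.11, edgeR adjusted p = 0.541). It had 282, 421 and 348 CPM in truncated SK3 apex and 353, 293 and 287 CPM in the base, against 269 to 324 CPM in the 8 controls, so the groups overlapped. With the GC and length trend taken out it was at 0.36 (edgeR adjusted p = 0.337). Klc2, at 44.8, 50.7 and 61.0 CPM in the apex and 42.2, 83.6 and 25.8 CPM in the base, had a log2 fold change of 0.12 (SE 0.21, edgeR adjusted p = 0.922). Kif26b stood at -0.22 on the same scale (SE 0.24, edgeR adjusted p = 0.83). Kif1bp stood at 0.25 (SE 0.22, edgeR adjusted p = 0.761). Kif5a was at -0.31 (SE 0.18, edgeR adjusted p = 0.596), Kif5c at -0.23 (SE 0.14, adjusted p = 0.606), Kif3c at -0.21 (SE 0.18, adjusted p = 0.768) and Klc1 at -0.07 (SE 0.10, adjusted p = 0.895). Kif5a had 242, 280 and 274 CPM in truncated SK3 apex and 216, 444 and 182 CPM in the base. The 8 controls had 295 to 429.5 CPM of Kif5a, so all truncated SK3 libraries but replicate 2 of the base lay below them. Kif1bp was split within both regions, at 68.6, 143 and 145 CPM in the apex and 84.6, 60.2 and 151 CPM in the base.

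In the 32 members 15 log2 fold changes with truncated SK3 were positive and 17 negative, with a median of -0.06 against 0.01 over all genes, of which 49.0% were negative. In the apex no member passed in edgeR, DESeq2 or limma-voom, none had an unadjusted p under 0.05 against 8.51% of all genes, and 0.254% of all genes passed in edgeR. In the base no member passed with these tools either, 1 had an unadjusted p under 0.05 against 5.51% of all genes, and 0.147% of all genes passed in edgeR. That member was Kif13b, a kinesin-3 motor, at 7.04, 8.31 and 8.42 CPM against 14.2 to 18.8 CPM in control base, with a log2 fold change of -1.01 (SE 0.45, edgeR adjusted p = 0.867). No member passed the test of a difference between regions in edgeR, DESeq2 or limma-voom, none had an unadjusted p under 0.05 against 3.64% of all genes, and 0.00% of all genes passed in edgeR.

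Against each other, the constructs differed over both regions in 1 of 32 members, Klc2, where 0.655% of all genes passed. At an unadjusted p under 0.05 there were 7 members, against 14.5% of all genes. Klc2 was lower with DN-HCN2, at a log2 difference of -1.24 (SE 0.22, edgeR adjusted p = 0.0137). All 7 DN-HCN2 libraries, at 13.6 to 27.0 CPM, were below 5 of 6 truncated SK3 libraries, and replicate 3 of truncated SK3 base, at 25.8 CPM, lay among them. Klc2 passed in all 13 fits without 1 library. With only the 4 groups compared in the fit the adjusted p was 0.158, and without the libraries rich in macrophage markers 0.0665 (both edgeR). The member of next smallest p was Kif5b, lower with DN-HCN2 at -0.41 (SE 0.11, edgeR adjusted p = 0.0938). Without replicate 3 of DN-HCN2 apex, Kif5b at -0.46 (edgeR adjusted p = 0.0189) and Kif3c at -0.55 (edgeR adjusted p = 0.0293) passed as well, but with the GC and length trend taken out of the fit on all libraries they were at -0.20 (adjusted p = 0.609) and -0.15 (adjusted p = 0.795). For Kif26b and Kif1bp, called against control, the constructs did not differ past the threshold. The differences were -0.72 for Kif26b (SE 0.25, edgeR adjusted p = 0.168) and 0.63 for Kif1bp (SE 0.23, adjusted p = 0.193).

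Base and apex of control cochleae did not differ in any member in edgeR, DESeq2 or limma-voom. No member had an unadjusted p under 0.05, against 4.82% of all genes, and 0.00% of all genes passed in edgeR. Klc4 had the smallest p, at 53.0, 58.4, 64.4 and 60.0 CPM in the apex and 35.5, 68.2, 44.9 and 40.7 CPM in the base, a log2 difference of -0.32 (SE 0.19, edgeR adjusted p = 1). Averaged over the 3 conditions, no member passed in edgeR, DESeq2 or limma-voom, where 1.16% of all genes passed in edgeR, and 2 members had an unadjusted p under 0.05 against 14.4% of all genes. They were Klc1, with 0.18 toward the base on the log2 scale (SE 0.08, edgeR adjusted p = 0.322), and Kif4, a motor of dividing cells at 0 counts in 11 libraries, with a fitted 3.08 (SE 1.33, edgeR adjusted p = 0.296).

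Among the members, 9 are textbook kinesins of the spindle and of cell division (Kif2c, Kif4, Kif14, Kif15, Kif18a, Kif18b, Kif20a, Kif20b and Kif22), grouped here after values were seen. They summed to between 2.27 and 10.4 CPM in 19 of 21 libraries. Replicate 1 of DN-HCN2 base had 42.6 CPM and replicate 3 of truncated SK3 base 20.1 CPM. For 7 of the 9 the first of these was the highest library, as it was for 3 of the 28 other members. In that library Kif2c had 7.10 CPM, Kif4 4.95 CPM, Kif18b 3.95 CPM and Kif14 2.75 CPM, and in every other library Kif2c had at most 1.12, Kif4 1.84, Kif18b 1.64 and Kif14 0.871 CPM. A count of 0 allows up to 3 counts, which is 0.196 to 0.306 CPM in these libraries.

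Markers of dividing cells were highest in the same 2 libraries, at 255 and 129 CPM, and at most 46.8 CPM elsewhere. All 12 of these markers were counted in some library, with Aurkb at 0 in 12 libraries, Ccnb1 and Bub1 in 11 each and Tpx2 in none. Replicate 1 of DN-HCN2 base also had the lowest sum of neuron markers, at 7210 CPM, and 3470 CPM of fibroblast markers, against 390 to 3516 CPM in control base. Their part in the values was not tested. Of the 9 kinesins 6 were tested and none was called in any comparison in edgeR. With DN-HCN2 over both regions 3 of the 6 log2 fold changes were positive and 3 negative, none at an unadjusted p under 0.05.

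**Figure D5:**
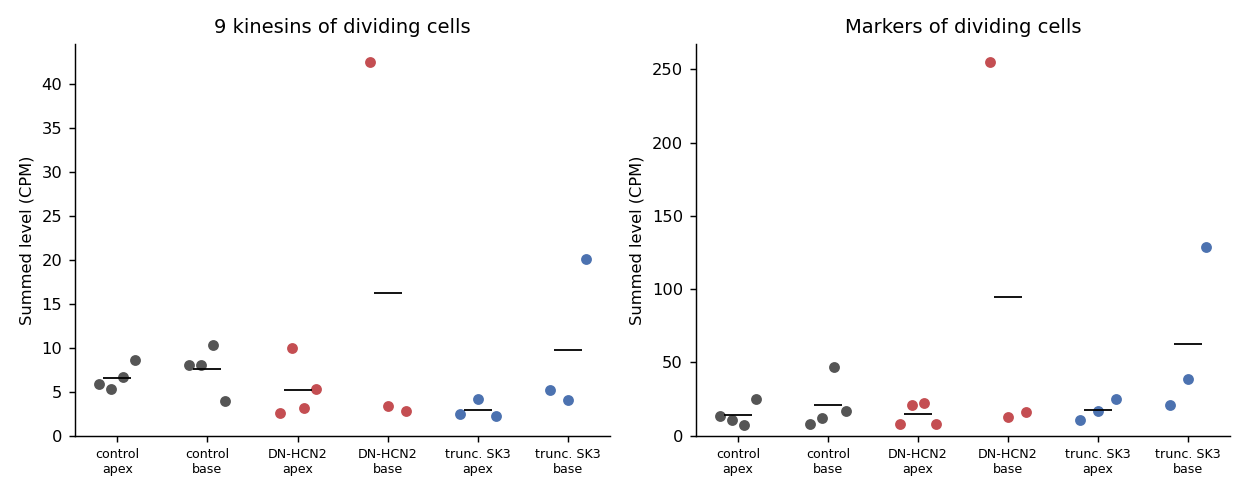
Summed level in CPM of the 9 kinesins of dividing cells (left) and of 12 marker genes of dividing cells (right) in each library by group, with the group mean as a black line. Replicate 1 of DN-HCN2 base (42.6 and 255 CPM) and replicate 3 of truncated SK3 base (20.1 and 129 CPM) are the 2 highest libraries in both panels.

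Genes that work with kinesins were described from 3 lists. Of 40 tested adaptors and cargo linkers, which tie motors to vesicles and mitochondria, 1 rose and 3 fell with DN-HCN2 over both regions (edgeR), where 2.45% of all genes rose and 3.61% fell, with a median log2 fold change of -0.16 against 0.03 over all genes. The vesicle scaffold gene Lin7c fell by 1.10 (SE 0.17, edgeR adjusted p = 0.000593), and this held in all 15 fits without 1 library. Madd, which links Kif1a and Kif1b to synaptic vesicle precursors, fell by 0.74 (SE 0.17, edgeR adjusted p = 0.0138), and by 0.50 with the GC and length trend taken out, where it did not pass. Mapk8ip3, a scaffold of kinesin-1, fell by 0.60 (SE 0.17, edgeR adjusted p = 0.0385). It passed in 6 of 15 fits without 1 library and in 6 of 11 other settings, where its log2 fold change ran from -0.70 to -0.31. The fourth was Klc3, a light chain outside the rule, named after its values were seen. Its mean was 0.71 CPM at the control apex and 0.30 CPM at the control base, and 4.81 and 5.66 CPM at apex and base with DN-HCN2 (log2 fold change 3.46, SE 1.02, edgeR adjusted p = 0.0486), and passed in 2 of 15 fits without 1 library.

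Of 26 tested genes of dynein and dynactin, the motor that moves the opposite way, 1 fell with DN-HCN2 and none rose in edgeR, a count near the 3.61% and 2.45% of all genes. It was Dync1li2, a light intermediate chain, which fell by 0.52 (SE 0.13, edgeR adjusted p = 0.0204). Of 28 tubulins and microtubule-binding genes 1 fell and none rose, again near those shares of all genes. It was Map2, which binds dendritic microtubules, with a log2 fold change of -0.86 (SE 0.21, edgeR adjusted p = 0.0196). Neither Dync1li2 nor Map2 passed with the GC and length trend taken out. With truncated SK3 over both regions, 1 gene of these lists passed, where 0.735% of all genes did. It was the alpha tubulin gene Tuba1c, which fell by 1.08 (SE 0.17, edgeR adjusted p = 0.00145) and did so in all 14 fits without 1 library. It was also the one track gene that differed between the constructs, higher with DN-HCN2 by 0.93 (SE 0.17, edgeR adjusted p = 0.0160). Of the adaptors, Lin7c differed between the constructs too, at a log2 difference of -1.06 for DN-HCN2 against truncated SK3. Lin7c passed there in all 13 fits without 1 library and in 10 of 11 other settings. Between the constructs 0.655% of all genes passed.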

How the data were processed

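RNA of about 50 spiral ganglion neurons per library was sequenced in 21 libraries of 6 groups. The authors deposited whole-number counts per gene symbol, not normalized. The submitters' processing notes name Trimmomatic, HISAT2 and DESeq2, and the builds GRCm38 and mm10. How reads were counted, with which annotation and use of strand, is not given in the sources used here. Of 21878 rows, 14968 passed filterByExpr. They were scaled by TMM and fitted with edgeR's robust quasi-likelihood test (edgeR 4.0.16, R 4.3.3), all libraries together with a mean for each group, and p-values were adjusted over all tested genes by the Benjamini-Hochberg method. Standard errors follow from the F statistic. The code was tested on simulated data. Other settings tried were scaling by RLE, all genes kept, a floor of 10 CPM in 3 libraries, DESeq2 (1.42.0), voom with sample weights (limma 3.58.1), a fit on the compared groups alone, the replicate number as a block, a trend on GC content and length from GENCODE M21 transcripts (splines of 5 degrees of freedom), each library left out, and 2 pairs of libraries left out, the pairs being chosen after seeing the data. A few Kif rows are not reported here. Full statistics were given for called members and the 10 members highest per length, and at most 3 called genes per pathway list by smallest p, besides Klc3, which was added after its values were seen. Members and lists were chosen with earlier results of these data known.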

Additional observations from a re-analysis of the deposited data

Results flagged for a closer look

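In groups of 4 libraries, a library was singled out when its gap to the next was larger than Dixon's 95% critical value allows. Over 96 such groups of the 32 tested members, 7 values in 6 libraries were singled out, and chance gives about 1 in 20 groups. Kif21a had 212 CPM in replicate 2 of control apex, against 185 to 189 CPM in the other 3 libraries. Kif5b had 295 CPM in replicate 3 of control apex, against 277 to 280.2 CPM. Kif24, a kinesin of the centriole, had 3.60 CPM in replicate 3 of control base, against 1.48 to 1.63 CPM. Kif27 and Kif4 each had 0.155 CPM in replicate 1 of control apex, and 0 counts in the other 3 libraries. Kif4 had 1.84 CPM in replicate 2 of control base, against 0 to 0.141 CPM, and 0.612 CPM in replicate 2 of DN-HCN2 apex, against 0 counts in the other 3. Where the other 3 libraries had 0 counts, any count above 0 is singled out whatever its size, and 0.155 CPM was 2 counts, fewer than the 3 counts that a 0 allows. All 7 values were the highest library of their group. Neither Klc2, Kif26b nor Kif1bp was among them.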

How the results depend on the processing

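The tested members under 1 CPM had standard errors that exceeded most of their differences. The count of members called with DN-HCN2 over both regions was 3, but 1 with the GC and length trend, 1 with the replicate block and that trend, 5 in DESeq2, 6 in limma-voom with sample weights, and 2 to 6 without 1 library, the most without replicate 3 of DN-HCN2 apex. It was 4 with only the groups compared, and 2 without either pair of DN-HCN2 libraries named in the report. Counts within 1.5 times of the main count were taken as equal and are not listed for the other comparisons. In the apex it was 0, but 1 in DESeq2, 1 in limma-voom, and 0 to 1 without 1 library. In the base it was 0, but 3 in DESeq2, 1 in limma-voom, 1 with only the groups compared and 1 without replicate 1 of DN-HCN2 apex and base. Between the constructs it was 1, but 2 in DESeq2, 0 with only the groups compared, 0 without the libraries rich in macrophage markers, and 1 to 3 without 1 library. The cause of these moves was not tested. Apart from the fit with the GC and length trend, the number of all genes called in these other settings is not given here. The counts of the other 7 comparisons were 0 under every setting run, and no named gene changed sign among called values. The replicate number as a block left 3 members called with DN-HCN2 over both regions. Same-numbered libraries of different groups deviated together with a median r of -0.02 over 48 pairs (-0.15 to 0.25, across genes). Over the 10 of these pairs that joined apex and base of the same virus, the median r was 0.04 (-0.07 to 0.13). Of 21 libraries, 4 correlated best with their own number, so the numbers were not taken to pair the libraries.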
